A study of Bos taurus with 8 samples.

Results

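Matricellular proteins are secreted into the extracellular matrix and act on cells from there, rather than mainly building the scaffold. The 10 genes described here are fibronectin (FN1), osteopontin (SPP1), the thrombospondins THBS1 and THBS2, the tenascins TNC and TNN, periostin (POSTN), SPARC and the CCN proteins CCN1 and CCN2. They were chosen by symbol from the 28709 genes of the deposited table, where CCN1 and CCN2 stand under the older symbols CYR61 and CTGF and were matched by Entrez Gene identifier. The choice was made with the progesterone contrast of these libraries already known, both with all DMSO libraries and with DMSO R1 and R3 alone. The values of the members in that contrast are therefore a description, and no test of a single member is offered as support.

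The cells were BUTE, an immortalized uterine epithelial line from a Holstein dairy cow, wild type by label, so the line stands for the cells of 1 animal. All dishes were first kept for 24 h without serum or steroids but with insulin-like growth factor 1. The control group then received the vehicle DMSO and the treated group 10 µM progesterone, both for 24 h. The medium held neither serum nor steroids, and its content of the growth factor was 50 ng/ml in either group. There were 4 RNA libraries of each treatment, and the labels do not say whether these came from separate cultures, so spreads and p-values measure only the difference between these libraries.

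Fibronectin forms fibrils on cells that hold it through integrins, and collagens and other matrix proteins attach to them. Osteopontin is a phosphorylated, integrin-binding secreted protein that uterine glands release in ruminants under progesterone during early pregnancy, where it helps the conceptus attach. Thrombospondins, tenascins, periostin, SPARC and CCN proteins bind integrins, other matrix proteins or growth factors and are usually raised in wounds, fibrosis and tissue growth. CCN1 and CCN2 are also widely used as target genes of YAP and TEAD, the transcriptional arm of the Hippo pathway.

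Library totals ran from 23810841 to 32509792 rounded counts. DMSO R7 and R9 stood apart from the other 6 libraries: at 25.2% of 13557 genes both were above all 6 others, and at 24.0% both were below. Of 12 epithelial markers 8 passed the filter on low counts. KRT8 was at 2481 ± 236 CPM (counts scaled to the size of each library) with DMSO (mean ± SD, n = 4) and KRT19 at 446 ± 226, while EPCAM did not exceed 2.53 CPM in any library and CLDN4, CLDN7, GRHL2 and OVOL2 stayed at or below 0.124. Markers of mesenchymal cells were counted as well, VIM at 6360 ± 434 CPM and COL1A2 at 5295 ± 1412. PTPRC, the pan-leukocyte marker, had no count in any library, and the endothelial marker CDH5 did not exceed 0.170 CPM. Together the 10 genes took 0.970% and 1.00% of the counts in DMSO R1 and R3, 2.78% and 2.65% in R7 and R9, and 0.912% to 0.998% with progesterone. Nothing in bulk RNA tells a change in the number of cells of a type from a change of RNA per cell.

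**Figure D1:**
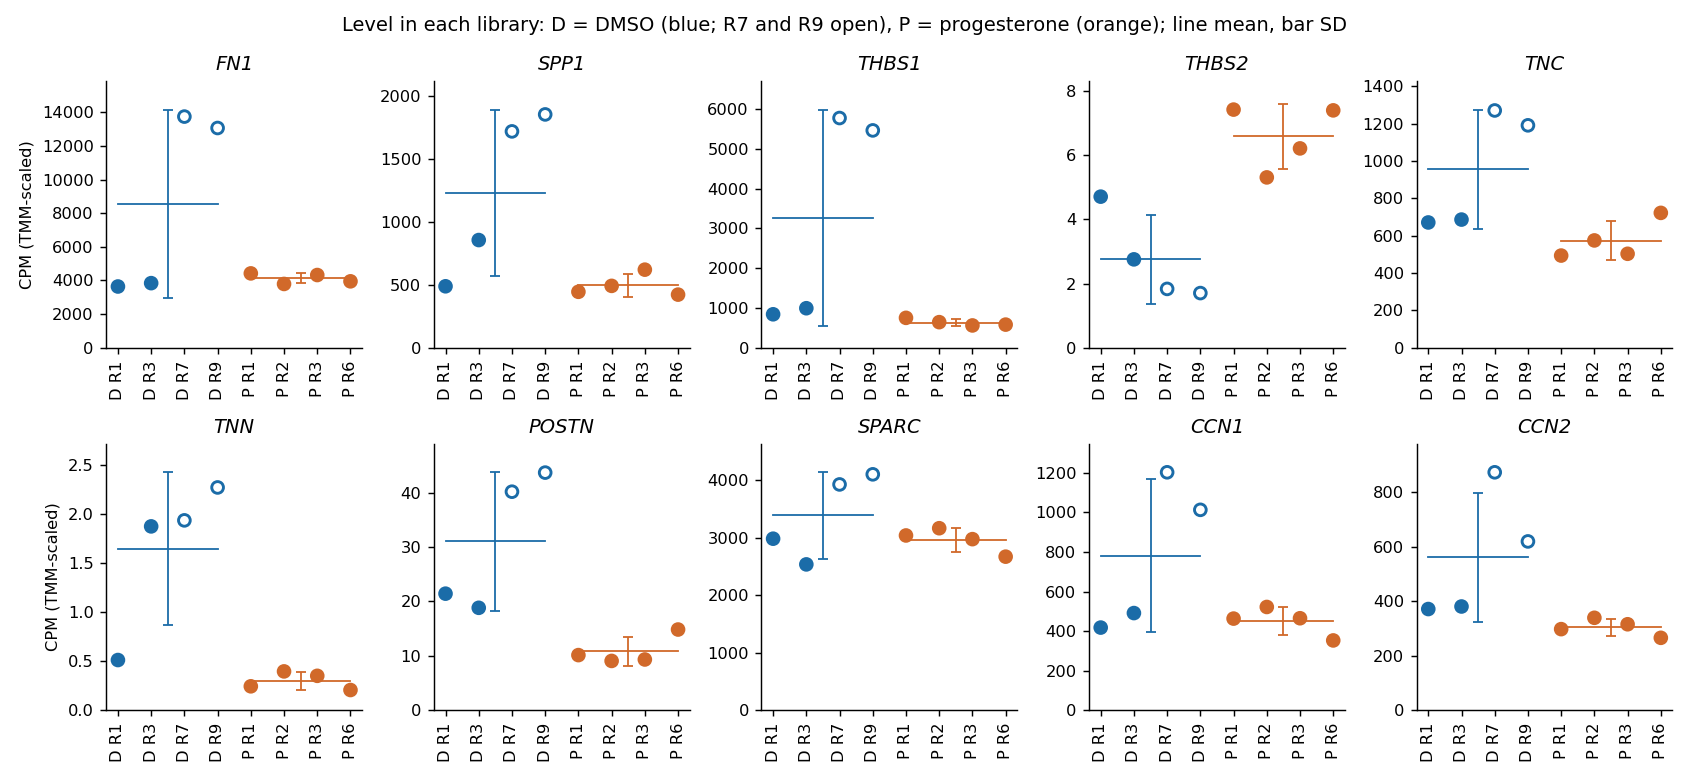
Level of each of the 10 genes in every library, in TMM-scaled CPM on linear axes that start at 0; filled blue points are DMSO R1 and R3, open blue points DMSO R7 and R9, orange points progesterone, lines group means and bars SD. R7 and R9 are the highest points in every panel but THBS2, where they are the lowest. For THBS1, TNN, POSTN and CCN2 R1 and R3 also lie above every progesterone point, while for FN1, SPP1, TNC, SPARC and CCN1 the groups overlap.

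FN1 (Entrez Gene 280794, chromosome 2) was at 3636 CPM in DMSO R1, 3836 in R3, 13742 in R7 and 13064 in R9. With progesterone it was at 4415, 3787, 4318 and 3943 CPM in R1, R2, R3 and R6. The progesterone values thus overlapped with DMSO, and 3 of them lay above both R1 and R3. Progesterone against DMSO gave a log2 fold change of -1.06 ± 0.45 (SE) with all 8 libraries and 0.15 ± 0.11 against R1 and R3 alone. The size and the sign of the difference in fibronectin therefore rested on R7 and R9, whose mean was 3.59 times that of R1 and R3. Without them the progesterone mean of 4116 ± 299 CPM was 1.10 times the mean of the remaining DMSO libraries.

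SPP1 (281499, chromosome 6) was at 488 and 856 CPM in DMSO R1 and R3 and at 1720.5 and 1855 in R7 and R9. With progesterone it was at 444, 491, 620 and 422 CPM. DMSO R1 lay within the progesterone range, and the other 3 DMSO libraries lay above it. For osteopontin the log2 fold change was -1.31 ± 0.39 (SE) with all libraries and -0.43 ± 0.22 against R1 and R3. The latter value was 0.019 ± 0.20 when R3 was left out and -0.79 ± 0.19 when R1 was. Each of these fits had 1 DMSO library, assumed to vary like the progesterone libraries, from which the SE came. No progesterone library exceeded DMSO R3, R7 or R9.

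THBS1 (281530, chromosome 10), thrombospondin 1, which inhibits angiogenesis and can activate latent TGF-beta, was at 838 and 991 CPM in DMSO R1 and R3. In R7 and R9 it was at 5774 and 5463, 6.14 times the mean of R1 and R3, the highest such ratio of the 10 genes. With progesterone it was at 749, 641, 558 and 579 CPM, below every DMSO library. Its log2 fold change was -2.37 ± 0.67 (SE) with all libraries and -0.52 ± 0.13 against R1 and R3, which is 5.17-fold and 1.43-fold lower.

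THBS2 (338092, chromosome 9), its close relative, was the only one of the 10 genes with a higher mean in progesterone in both comparisons and without overlap between the groups. It was at 4.71, 2.75, 1.83 and 1.70 CPM in DMSO R1, R3, R7 and R9 and at 7.43, 5.31, 6.22 and 7.40 with progesterone. R7 and R9 were the lowest libraries for this gene. For THBS2 the log2 fold change was 1.26 ± 0.32 (SE) with all libraries and 0.83 ± 0.25 against R1 and R3. Counts for THBS2 were low, between 45 and 243 in a library.

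TNC (540664, chromosome 8), tenascin C, which loosens the attachment of cells to fibronectin, was at 671 and 686 CPM in DMSO R1 and R3 and at 1271 and 1191 in R7 and R9. With progesterone it was at 493, 574, 503 and 722 CPM. Progesterone R6 exceeded R1 and R3, and the other 3 progesterone libraries lay below every DMSO library. Its log2 fold change was -0.74 ± 0.23 (SE) with all libraries and -0.23 ± 0.15 against R1 and R3.

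TNN (517433, chromosome 16), tenascin N, was the least counted member, with 15, 51, 57 and 60 counts in DMSO R1, R3, R7 and R9 and 8, 10, 10 and 5 with progesterone. In CPM these were 0.512, 1.87, 1.93 and 2.27 against 0.245, 0.396, 0.351 and 0.207. The groups did not overlap, but DMSO R1 lay close to the progesterone libraries and R3 lay with R7 and R9, unlike in FN1 or THBS1. For TNN the log2 fold change was -2.44 ± 0.47 (SE) with all libraries and -1.96 ± 0.53 against R1 and R3. TNN passed the filter on low counts through the DMSO group, where it was high.

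POSTN (281960, chromosome 12), periostin, a collagen-binding protein of fibrous tissue, was at 21.4, 18.8, 40.2 and 43.7 CPM in DMSO R1, R3, R7 and R9. With progesterone it was at 10.1, 9.08, 9.34 and 14.8 CPM, below every DMSO library. Here R1 and R3 also lay above progesterone, at 1.86 times its mean. The log2 fold change was -1.52 ± 0.29 (SE) with all libraries and -0.88 ± 0.19 against R1 and R3, which is 2.86-fold and 1.84-fold lower.

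SPARC (282077, chromosome 7), which binds collagen and counters cell spreading, varied least, over a range of 0.69 on the log2 scale from the lowest to the highest library. It was at 2983, 2536, 3926 and 4101 CPM in DMSO R1, R3, R7 and R9 and at 3039, 3165, 2975 and 2670 with progesterone. R7 and R9 were the highest libraries, and the progesterone libraries lay among R1 and R3 or just above them. The log2 fold change was -0.19 ± 0.15 (SE) with all libraries and 0.12 ± 0.11 against R1 and R3, so neither its size nor its sign stood clear of the error.

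CCN1 (508941, chromosome 3) was at 418, 491, 1202 and 1012 CPM in DMSO R1, R3, R7 and R9 and at 463, 522, 465 and 353 with progesterone. CCN2 (281103, chromosome 9), the connective tissue growth factor, was at 372, 381, 874 and 620 CPM and at 298, 340, 316 and 266. Both were high in R7 and R9, but against R1 and R3 they parted: progesterone overlapped these libraries for CCN1 and lay below them for CCN2. CCN1 had a log2 fold change of -0.79 ± 0.33 (SE) with all libraries and of 0.0012 ± 0.14 against R1 and R3. For CCN2 it was -0.88 ± 0.26 and -0.29 ± 0.11.

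**Figure D2:**
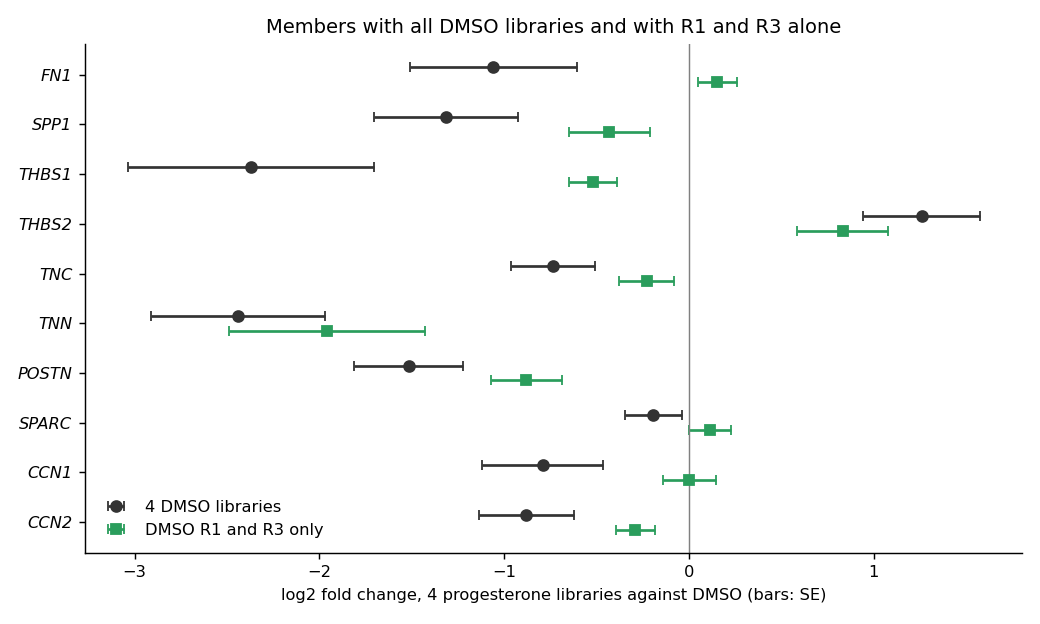
Log2 fold change of each gene between the 4 progesterone libraries and DMSO, with all 4 DMSO libraries (black circles) and with DMSO R1 and R3 alone (green squares); bars are SE from edgeR. Every green point lies nearer to 0 than its black one, those of FN1, SPARC and CCN1 at 0 or just above it; the green points farthest from 0 are those of TNN, POSTN and THBS2.

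All 10 genes passed the filter on low counts in both fits. With all libraries 2 of them, TNN and POSTN, both lower with progesterone, passed the threshold of 0.05 on the Benjamini-Hochberg adjusted p of edgeR. TNN had passed the filter through the DMSO group, where it was high, so its call is no support. With a mean of at least 1 CPM as the filter, TNN was left untested and 1 member was called. Limma voom called POSTN lower (adjusted p = 0.0497) and THBS2 higher (0.0468), but not TNN (0.0711). DESeq2 called 6 members lower and 1 higher. Of the 13557 genes tested 0.959% were called lower, 1.69% higher and 2.65% in either direction. This balance turned in other fits: DESeq2 called 888 genes higher and 942 lower, edgeR 818 and 964 without DMSO R1 and 359 and 436 without DMSO R3. The contrast had served to choose the genes, so nothing is read from that count. Leaving out R7, R9 or any of the 4 progesterone libraries left 0 members called, leaving out DMSO R1 left 8 and leaving out DMSO R3 left 3. Against R1 and R3 alone edgeR called 0 of 10. Of 13764 genes 1.18% were called there, 0.182% lower (25 genes) and 0.995% higher (137). With scaling to library size only these were 36 and 92 genes. Of the members 5 had an unadjusted edgeR p under 0.05, beside 2185 of the 13764 genes. DESeq2 called 3 members there, beside 568 genes in all, and limma voom 1, beside 136.

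The progesterone libraries lay wholly below DMSO for 4 genes (THBS1, TNN, POSTN and CCN2), as at 8.22% of all genes tested, and wholly above for THBS2, as at 7.95%. Against R1 and R3 alone the same 5 were without overlap, which follows from the first count; there the shares of all genes were 13.9% lower and 12.9% higher. The median log2 fold change of the 10 genes was -0.97 with all libraries and -0.26 against R1 and R3, beside -0.01 and 0.01 over all genes tested. In every one of the 10 genes the size of the log2 fold change was smaller without R7 and R9. These were the outermost libraries of each gene, on the side away from progesterone. The smaller size thus largely followed from their position and is no separate result. Its share over all genes was not computed.

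Within progesterone the coefficient of variation was between 7.09% (SPARC) and 29.6% (TNN), and 7.27% for FN1. Within DMSO it was between 22.2% (SPARC) and 83.3% (THBS1), and 65.2% for FN1. R7 and R9 were both above the other 6 libraries for 9 of the 10 genes and both below for THBS2, beside 25.2% and 24.0% of all genes tested. For TNN, however, the step from R3 to R7 was only from 1.87 to 1.93 CPM. The part of the whole-transcriptome difference of R7 and R9 in these values was not tested.

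**Figure D3:**
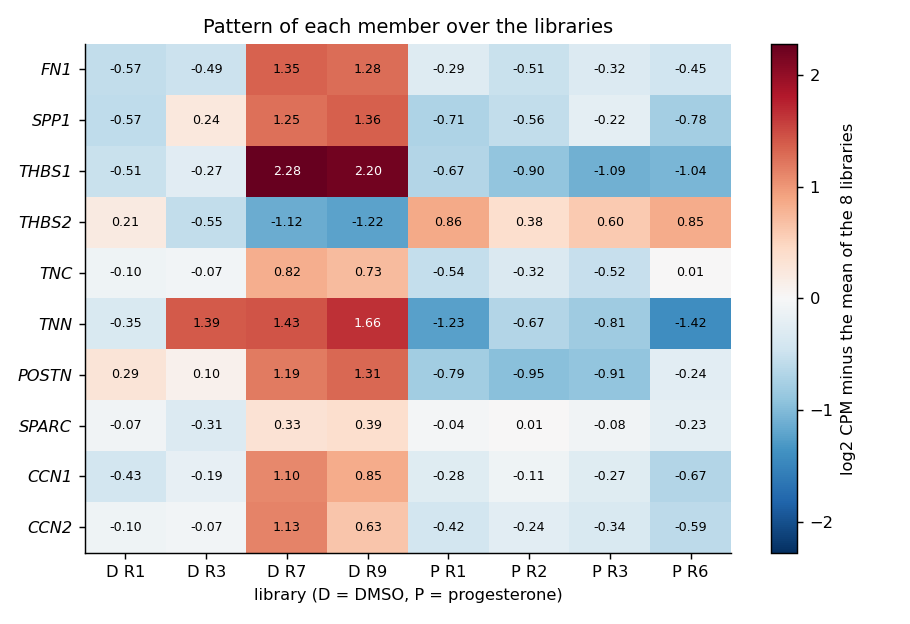
Pattern of each gene over the 8 libraries as log2 CPM (prior count 2) minus its own mean, in red where above and in blue where below. R7 and R9 are red in every row except THBS2, from 0.33 and 0.39 for SPARC to 2.28 and 2.20 for THBS1; R3 is at 1.39 for TNN.

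Patterns were compared by the mean absolute difference between centred log2 CPM over the 8 libraries. Of the 45 pairs the closest was CCN1 with CCN2 (0.140), followed by TNC with CCN2 (0.173), CCN1 with FN1 (0.225) and SPP1 with FN1 (0.226). The farthest was TNN with THBS2 (1.84), and THBS1 and THBS2 stood 1.78 apart. All these distances share the same 8 libraries, R7 and R9 among them.

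By the same measure the 4 genes nearest to SPP1 among 9480 with a mean of at least 10 CPM were ANKRD1 (0.109), PVR (0.127), NEXN (0.135) and ENC1 (0.160). ANKRD1, a muscle-type ankyrin repeat protein, is also on the list of YAP and TEAD targets read below. It was at 22.5, 37.7, 67.6 and 78.8 CPM in DMSO R1, R3, R7 and R9 and at 14.2, 20.8, 25.4 and 16.5 with progesterone, with the step from R1 to R3 that SPP1 also had. The 4 nearest to FN1 were LTBP1 (0.107), PVR (0.140), COL1A1 (0.15) and DSC2 (0.157). LTBP1, which holds latent TGF-beta in the matrix, was at 13.9, 15.1, 48.1 and 45.3 CPM in DMSO and between 12.1 and 14.0 with progesterone. COL1A1, a chain of type I collagen, was at 2046, 1928, 6554 and 5295 CPM in DMSO and between 1516 and 1851 with progesterone, so unlike FN1 it was lower there than in R1 and R3.

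Genes related to the members were read from lists fixed for this description and tested in the same fits. Over all genes tested, 3627 of 13557 had an unadjusted edgeR p under 0.05 with all libraries. Against R1 and R3 these were 2185 of 13764. DESeq2 called 1830 and 568 genes in these comparisons, and voom 277 and 136. The counts of each list below are to be read beside these. Of 21 other matricellular and related secreted proteins 15 were tested, 2 rose, 0 fell and 13 did not pass, with 10 at an unadjusted p under 0.05, 5 called by DESeq2 and 2 by voom. The edgeR count was 0 without DMSO R7 or R9 or progesterone R2, R3 or R6, 1 without progesterone R1 and 5 without DMSO R1. LGALS3, galectin 3, a sugar-binding protein found inside and outside cells, was at 1055, 1160, 1145 and 918 CPM in DMSO and at 1449, 1762, 2049 and 1975 with progesterone. It rose by 0.76 ± 0.13 on the log2 scale (SE, edgeR adjusted p = 0.0230) and by 0.72 ± 0.14 against R1 and R3 (0.0402), where this was the list's only call, with 3 by DESeq2 and 1 by voom. There the edgeR count was 0 with scaling to library size only or without progesterone R2 or R3, and 2 without progesterone R6. It was also 0 without DMSO R1 or R3, when the 1 DMSO library left was assumed to vary like the progesterone libraries. In LGALS3 the 4 DMSO libraries lay together.

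CCN4, a relative of CCN1 and CCN2, was at 76.7, 73.6, 62.6 and 54.7 CPM in DMSO and at 97.3, 109, 124 and 96.8 with progesterone. It rose by 0.67 ± 0.13 on the log2 scale (SE, edgeR adjusted p = 0.0303), and against R1 and R3 its value was 0.52 ± 0.11 without a call (0.0524). The direction of CCN4 was thus opposite to that of CCN2, although the difference between the genes was not tested. CCN3 and CCN5 did not pass, with log2 fold changes of 0.34 ± 0.13 and -0.70 ± 0.20 (SE) and of 0.24 and -0.49 against R1 and R3. CCN6 and vitronectin (VTN) had no count in any library.

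SMOC1, SMOC2 and FBLN5 were singled out after their values were seen, for their distance between R7 and R9 and the rest. Of the 21 other matricellular genes R7 and R9 were both above the other 6 libraries for 7 and both below for 3. Over all genes tested these shares were 25.2% and 24.0%. SMOC1, a SPARC-related protein, was at 24.0, 21.2, 194 and 206 CPM in DMSO and between 9.12 and 19.1 with progesterone. SMOC2, its relative, was at 50.2, 30.5, 2.10 and 1.59 CPM in DMSO and between 45.4 and 70.9 with progesterone. FBLN5, an elastic fibre protein, was at 1.06, 1.21, 16.9 and 15.1 CPM in DMSO and between 0.436 and 0.825 with progesterone. These genes, too, had R1 and R3 much nearer to progesterone than to R7 and R9, and none of them passed in either fit.

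**Figure D4:**
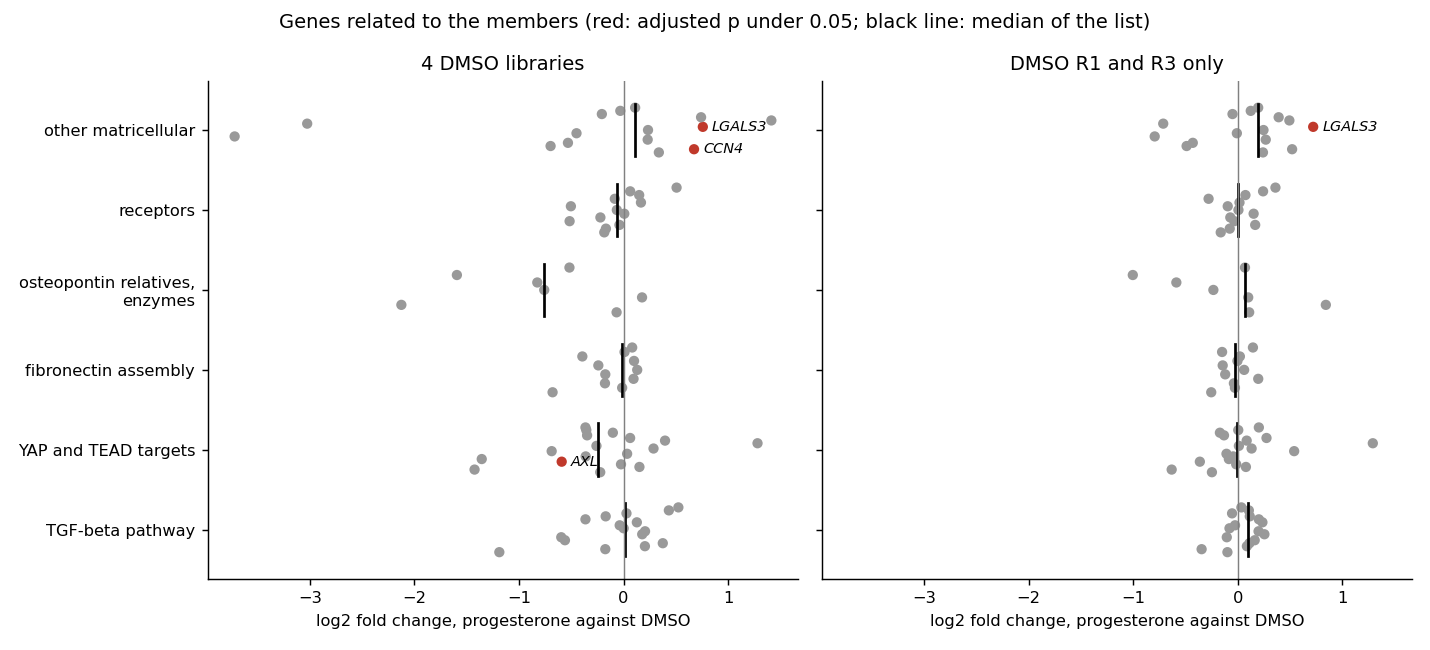
Log2 fold change of the tested genes of 6 related lists, with all 4 DMSO libraries (left) and with DMSO R1 and R3 alone (right); each point is a gene, red where the edgeR adjusted p was under 0.05, and black lines are list medians. LGALS3 is red in both panels, CCN4 and AXL in the left one; the spread of the points is narrower on the right.

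Of 16 receptors of the members 13 were tested and 0 passed in edgeR in either comparison, with 2 at an unadjusted p under 0.05 in each. DESeq2 called 2 with all libraries and 0 against R1 and R3, and voom 0 in both; edgeR called 2 without DMSO R1 or without DMSO R3. The integrin chains of the main fibronectin and osteopontin receptors did not pass. ITGB1 was at 1665 ± 103 CPM with DMSO and 1592 ± 66.6 with progesterone (mean ± SD, n = 4 each), ITGAV at 625 ± 68.8 and 628 ± 39.0, and ITGA5 at 219 ± 31.6 and 213 ± 18.0. CD44, a hyaluronan receptor that also binds osteopontin, was at 1146 ± 50.5 and 1008 ± 100.4 CPM.

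The receptors with the smallest p were SDC4 and ITGB3. SDC4, a syndecan that acts with integrins on fibronectin, was at 167, 180, 139 and 135 CPM in DMSO and at 219, 204, 273 and 187 with progesterone, a log2 fold change of 0.51 ± 0.14 (SE, edgeR adjusted p = 0.0704) and of 0.36 ± 0.14 against R1 and R3 (0.236). ITGB3, the partner of ITGAV in the vitronectin receptor, was at 159, 145, 246 and 249 CPM in DMSO and between 133 and 151 with progesterone, and its log2 fold change of -0.50 ± 0.17 shrank to -0.10 ± 0.09 against R1 and R3 (edgeR adjusted p = 0.110 and 0.653). ITGA4, ITGB6 and CD36 were not tested, for lack of counts. The median log2 fold change of the receptors was -0.06 and 0.01, close to that of all genes.

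Of 13 relatives of osteopontin and enzymes that modify or cut the members, 7 were tested and 0 passed in edgeR (3 at an unadjusted p under 0.05, DESeq2 1, voom 0), while edgeR called 2 without DMSO R1 and 1 without DMSO R3. Against R1 and R3 none passed either (1 at an unadjusted p under 0.05, DESeq2 0, voom 0). DMP1, MEPE and DSPP, which belong to the same gene family as osteopontin, had no count in any library. LOX, which crosslinks collagen, was at 563, 524, 1185 and 828 CPM in DMSO and at 515, 463, 431 and 424 with progesterone, a log2 fold change of -0.76 ± 0.23 (SE, edgeR adjusted p = 0.0900) and of -0.23 ± 0.10 against R1 and R3 (0.308). PHEX, an endopeptidase that can cleave osteopontin, was at 0.956 ± 0.386 and 0.318 ± 0.202 CPM (mean ± SD, n = 4 each). The list's median was -0.76 with all libraries and 0.07 against R1 and R3.

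Of 13 genes of focal adhesions and fibrils used in fibronectin assembly 11 were tested and 0 passed in edgeR, with 2 at an unadjusted p under 0.05, 1 called by DESeq2 and 0 by voom. EdgeR called 1 without DMSO R1 or without DMSO R3. Against R1 and R3 these counts were 0, 1, 0 and 0. ACTN1, the actin-bundling alpha-actinin, was at 1333, 1357, 2233 and 2233 CPM in DMSO and at 1202, 1135, 1164 and 969 with progesterone, with log2 fold changes of -0.68 ± 0.19 (SE) and -0.25 ± 0.11. Paxillin (PXN) had -0.24 ± 0.09 and -0.14 ± 0.10. Neither passed, and R7 and R9 were the highest libraries for both.

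Of 20 genes commonly used as YAP and TEAD targets, beside CCN1 and CCN2, 18 were tested, 0 rose, 1 fell and 17 did not pass, with 7 at an unadjusted p under 0.05, 3 called by DESeq2 and 1 by voom. The edgeR count was 2 without DMSO R1 and 0 without DMSO R7, DMSO R9 or any 1 progesterone library. AXL, a receptor tyrosine kinase, was at 372, 393, 533 and 477 CPM in DMSO and at 311, 301, 299 and 267 with progesterone. It fell by 0.59 on the log2 scale (SE 0.12, edgeR adjusted p = 0.0377), and against R1 and R3 its value was -0.36 ± 0.09 without a call (0.0910). No gene of the list passed against R1 and R3 (5 at an unadjusted p under 0.05, DESeq2 1, voom 0). The list's median was -0.24 with all libraries and -0.01 against R1 and R3.

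All 16 listed genes of the TGF-beta pathway, which raises FN1, CCN2 and TNC in many cells, were tested and 0 passed in edgeR, DESeq2 or voom in either comparison, with 4 and 0 at an unadjusted p under 0.05. Without DMSO R1 edgeR called 4. TGFB1 was at 146 ± 16.0 CPM with DMSO and 160 ± 21.2 with progesterone (mean ± SD, n = 4 each). SKIL, a feedback repressor, had a log2 fold change of -0.60 ± 0.24 (SE) with all libraries and -0.11 ± 0.19 against R1 and R3. LTBP1 had -1.19 ± 0.41 and -0.10 ± 0.13.

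Markers of several cell types differed between R7 and R9 and the other libraries, in both directions. Of the 12 epithelial markers R7 and R9 were both above the other 6 libraries for 5 and both below for 3. Over all genes tested these shares were 25.2% and 24.0%. KRT8 was at 2308, 2286, 2541 and 2789 CPM in DMSO R1, R3, R7 and R9 and between 1348 and 2107 with progesterone. KRT19 ran the other way in DMSO, at 706, 565, 255 and 258 CPM, and was between 361 and 585 with progesterone. KRT7 was at 35.3, 21.96, 5.70 and 6.09 CPM and between 12.2 and 25.7. The 2 keratins KRT19 and KRT7 were thus lowest in the libraries where FN1 and THBS1 were highest. KRT8, KRT18 and EPCAM were highest in those libraries, with KRT18 at 2.22, 1.21, 5.87 and 6.92 CPM in DMSO and between 0.948 and 1.80 with progesterone. The summed level of the list, 2874 to 3122 CPM with DMSO and 1776 to 2693 with progesterone, does not show these opposite differences. None of the 8 epithelial markers tested passed in edgeR (3 at an unadjusted p under 0.05, DESeq2 3, voom 0), while 2 did without DMSO R1 and 1 without DMSO R3.

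Of the 12 stromal markers R7 and R9 were both above the other 6 libraries for 9 and both below for 2, beside 25.2% and 24.0% of all genes tested. Their summed level was 13330 and 13615 CPM in DMSO R1 and R3, 20826 and 19271 in R7 and R9, and 12151 to 13325 with progesterone. COL1A1, COL1A2 and LUM were, like FN1, highest in R7 and R9. DCN was at 962, 770, 268 and 281 CPM in DMSO and between 522 and 632 with progesterone. All 12 were tested and 0 passed in edgeR (5 at an unadjusted p under 0.05, DESeq2 4, voom 0), while 2 did without DMSO R1 and 3 without DMSO R3.

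Of the 7 smooth muscle markers R7 and R9 were both above the other 6 libraries for 3 and both below for 1, beside 25.2% and 24.0% of all genes tested. The list summed to 2246 and 2516 CPM in R1 and R3, 3113 and 3057 in R7 and R9 and 1751 to 2288 with progesterone. MYH11 stayed at or below 0.176 CPM. TAGLN, an actin-binding protein also made by other cells, was at 1186, 1402, 2203 and 2071 CPM in DMSO and between 885 and 1188 with progesterone. CNN1 ran the other way in DMSO, at 192, 214, 125 and 125 CPM, and was between 139 and 174 with progesterone. Of this list 5 were tested and 0 passed (1 at an unadjusted p under 0.05, DESeq2 1, voom 0), while 2 did without DMSO R1. Endothelial markers summed to 3.02 and 3.74 CPM in R7 and R9 and to between 3.88 and 6.66 in the other 6 libraries. Of these 7 markers only VWF, at 3.58, 4.30, 1.66 and 1.59 CPM in DMSO, was below the other 6 libraries in both R7 and R9. CDH5 and KDR were above them in both, with at most 5 and 9 counts in a library. Leukocyte markers summed to 6.99 and 5.60 CPM in R7 and R9 and to between 8.92 and 14.2 in the others, with CD14 at 3.94 and 3.14 CPM in R7 and R9 and at 11.3 and 10.6 in R1 and R3. Of these 7 markers R7 and R9 were both above the other 6 libraries for 1 and both below for 1. The part of all these markers in the values of the 10 genes was not tested.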

How the data were processed

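The 8 mRNA libraries were made with a stranded kit, per the labels' protocols. The values the authors deposited were taken to be estimated counts. Salmon 1.4.0, bcl2fastq and the build ARS-UCD1.2 appear in the submitters' processing notes without a stated role. Whether the counts were divided by length, as the title of the table has it, could not be settled from the values. Levels of different genes set side by side, as for the markers and TNN, may therefore not be comparable. Sums over marker lists (CPM, not per length) are compared only between libraries. No sequence or coordinate is printed, as no genome of that build was used here.

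Counts were rounded, filtered (filterByExpr), scaled by TMM and tested with edgeR 4.0.16 (quasi-likelihood, robust, two-sided) in R 4.3.3, with all 8 libraries and with DMSO R1 and R3 against progesterone. P-values were adjusted over all genes (threshold 0.05). The SE is the log2 fold change over the square root of F. Pairs of libraries within a group differed beyond sampling noise (chi-square per degree of freedom 14.9 to 137). Column numbers could not be matched to sample replicate numbers, so each column entered as an unnumbered replicate of its group. The test was checked on simulated data.

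The 10 members, the 11 lists and the tests were chosen with earlier results of these data known. Named are all members; from each of the 6 lists of related genes every gene called and otherwise the 2 with the smallest p; and the 4 genes nearest to SPP1 and to FN1. Markers and some other genes are named outside that rule, after their values were seen. Alternatives were other size factors, library size only, 2 other filters, DESeq2 1.42.0, limma voom 3.58.1, unrounded counts, each library left out and the column number as a block.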

Additional observations from a re-analysis of the deposited data

How the results depend on the processing

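With all 8 libraries 359 genes were called, and 1830 with DESeq2, 42 to 1782 with 1 library left out. Of the 10 members 2 were called, and 1 with a mean of at least 1 CPM (which left TNN untested), 7 with DESeq2, 0 to 8 with 1 library left out. Without DMSO R7 and R9 162 genes were called, and 326 without the low-count filter, 568 with DESeq2, 19 to 178 with 1 further library left out. Of the members 0 were called there, and 3 without the filter, 3 with DESeq2, 1 with voom, 0 to 1 with 1 further library left out. Without DMSO R1 or R3 that comparison has 1 DMSO library, assumed to vary like the progesterone libraries. The cause of these differences was not tested.

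Column numbers R1 and R3 occur in both groups. The deviations of same-numbered libraries correlated across genes at 0.226 and 0.210, those of differently numbered libraries at between -0.15 and 0.148. However, 2 pairs of unmatched numbers do not establish pairing. With the column number as replicate block, which leaves only these 2 pairs to set the difference, 2531 genes and 6 members were called, and SPARC (0.13), CCN1 (0.035) and FN1 (0.23) were above 0. Of the related lists the block called 6 other matricellular genes, 6 receptors, 3 osteopontin relatives or enzymes and 2 assembly genes. It also called 5 YAP and TEAD targets and 4 TGF-beta pathway genes. Of the markers it called 3 epithelial, 5 stromal, 3 smooth muscle, 0 endothelial and 0 leukocyte ones.

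Of 288 alternative log2 fold changes of members 273 kept their sign. The other changes of sign were without R7 and R9. SPP1 ranged from -0.79 to 0.019 and SPARC from -0.0094 to 0.22 with 1 library left out. CCN1, at 0.0012, was at -0.0091 with DESeq2-type size factors and with DESeq2, -0.0093 with voom, -0.010 without the filter, -0.013 with a mean of at least 1 CPM, -0.044 with library size only and between -0.12 and 0.11 with 1 library left out. TNN had 5 to 60 counts in a library, and no alternative varied the depth.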
